A study of Mus musculus with 7 samples.

Results

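The genes examined encode the proteins of the cytosolic ribosome, measured in osteoblasts sorted from mice with and without lung tumors. Members were the protein-coding genes whose symbol is Rpl or Rps followed by a number, together with Rplp0 to Rplp2, Rpsa and Fau. Pseudogenes, the kinases named Rps6k and the mitochondrial families Mrpl and Mrps were left out. Of the 23725 genes in the files, 87 were members: 53 of the large and 34 of the small subunit. They comprised 78 genes with 1 gene for each ribosomal protein, 6 paralogs (Rpl3l, Rpl10l, Rpl22l1, Rpl36al, Rpl39l and Rps27l) and 3 retrogene copies (Rpl32l, Rps23rg1 and Rpl37rt).

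The study asked how osteoblasts, the bone-forming cells, change when a lung adenocarcinoma grows at a distance. All 7 mice were recorded as males of the C57BL/6 background and carried the conditional alleles of the KP lung tumor model, among them p53Flox/Flox, which Cre recombinase deletes, and an Ocn-GFP reporter, which marks cells that express osteocalcin. In the 4 tumor-bearing mice, lung tumors were started with an adenovirus carrying Cre (AdCre) given into the trachea, and bones were taken 14 weeks later. The 3 tumor-free mice had the same genotype. The treatment protocol text is the same for both groups, so what the tumor-free mice were given is not known. In each group 1 mouse was 23 weeks old, replicate 4 with a tumor and replicate 3 without one, and the others were 31 weeks old. From each mouse 2000 cells negative for CD45, CD31 and Ter119 and positive for GFP were sorted into 1 library of transcript 3′ ends, so each replicate is a separate animal. The gate takes any cell with the reporter, so it does not separate stages of the osteoblast lineage.

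A ribosome is built from ribosomal RNA and ribosomal proteins on a large subunit, which forms peptide bonds, and a small subunit, which reads the messenger RNA. The messenger RNAs of ribosomal proteins begin with a C followed by a run of pyrimidines (a terminal oligopyrimidine tract), through which mTORC1 adjusts their translation, and Myc drives their transcription. Many of the genes carry small nucleolar RNAs (snoRNAs), guides for the modification or processing of ribosomal RNA, inside their introns. Osteoblasts secrete large amounts of collagen and depend on a high capacity for protein synthesis.

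The libraries held between 77127 and 169774 counts, with a mean of 121741 ± 41756 (SD, n = 4) in the tumor-bearing and 114570.0 ± 10969 (SD, n = 3) in the tumor-free group (two-sided exact permutation p = 0.8 over 35 splits, where the smallest possible p is 0.0286). At this depth, 3 counts, the most that a count of 0 allows, correspond to 16.9 to 41.1 CPM (counts scaled to a common library size, here corrected by TMM). This limit and all errors of counts cover counting error only. All 11 osteoblast markers had counts. Of the leukocyte markers 5 of 8 had counts, led by Itgam, Csf1r and Ptprc, with Elane, Lyz2 and S100a8 at 0. Ptprc encodes CD45, which the sorted cells were selected to lack. Of the endothelial markers 1 of 5 had counts, Cdh5, with Pecam1, Kdr, Emcn and Tek at 0. The T cell markers had counts for 4 of 4. The B and plasma cell markers had counts for 1 of 4, Jchain, with Cd79a and Cd79b among those at 0. The megakaryocyte markers had counts for 1 of 3, Itga2b, with Pf4 and Ppbp at 0. The summed leukocyte level was 382 to 443 CPM in the tumor-bearing and 374 to 427 CPM in the tumor-free libraries, and that of T cell markers 191 to 302 and 165 to 289 CPM. Because each library is a bulk sample, fewer cells of a type and less RNA per cell cannot be told apart.

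Ribosomal protein genes were detected widely but at few counts. Together the 87 members held 2854 counts over the 7 libraries, between 0.247% and 0.474% of a library. Counts were found for 82 members (94.3%), against 59.4% of all 20356 protein-coding genes. The median member had 13 counts in total and the median protein-coding gene 1, but the mean was 32.8 for members and 36.7 for protein-coding genes. Each library detected between 47 and 66 members. No count was found for Rpl24, Rpl3l, Rpl39l, Rps27l and Rpl37rt in any library. Large subunit genes had a median of 11 and small subunit genes of 15 total counts.

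The counts were concentrated in a few members. Rpl23, Rps3 and Rpl21 held 1054 counts, 36.9% of all counts of the family, and the leading 10 members held 1809 counts (63.4%). At the other end, 38 members had fewer than 10 counts in all libraries together. Libraries of 3′ ends sample a transcript at 1 end, so a count is not expected to grow with length. Across 84 members, however, the total count had a Spearman correlation of 0.40 with transcript length, and the cause was not tested. A value per kilobase also depends on the transcript taken, of 1059 bases in Rpl23, 1908 in Rps3 and 1856 in Rpl21. Per kilobase of the principal transcript, Rpl23 also led, with 409.8 counts per kilobase over the 7 libraries, ahead of Rps3 with 172, Rpl7a with 163, Rpl21 with 157 and Rps2 with 138.

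Members that carry a snoRNA gene on the same strand held most of the counts. In the GENCODE vM21 annotation of GRCm38/mm10, 30 of 86 annotated members held 1 or more snoRNA genes, and they accounted for 2090 counts, 73.2% of the family. Their median total count was 22.5 (range 2 to 434) against 10 (range 0 to 82) for the 56 others. The 7 members with most counts and 10 of the leading 12 were hosts. The medians kept this order within the large subunit (17.5 in 20 hosts against 7 in 33 others), within the small subunit (31 in 10 against 14 in 23), among the core genes (22.5 in 30 against 13.5 in 48) and among genes spanning 2000 to 6000 bases (17.5 in 28 against 13 in 35). Outside the family, 230 protein-coding hosts had a median of 5 counts and 19630 other protein-coding genes a median of 1, with means of 42.4 and 36.8. The files list 109 snoRNA genes of their own, and these held 0 counts. Counts are given per gene, so reads from the intron of a host and from its mature transcript cannot be told apart.

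**Figure D1:**
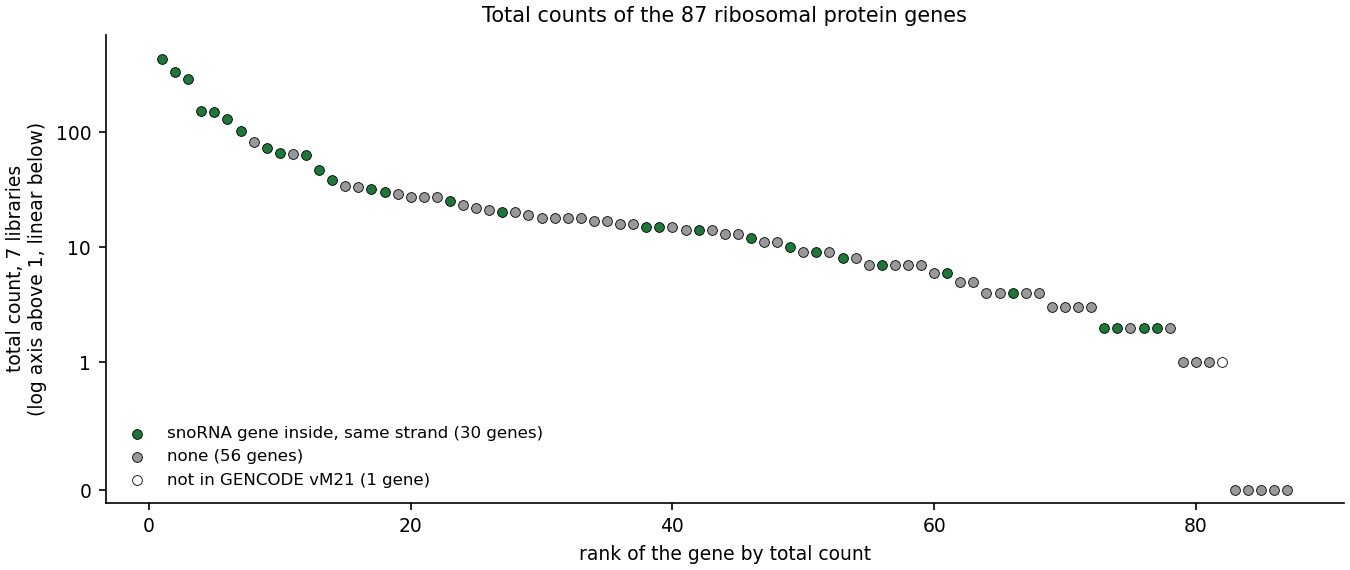
Total count over 7 libraries (log axis above 1, linear below) of each of the 87 ribosomal protein genes, ranked along the horizontal axis, with green for the 30 genes that hold a snoRNA gene on the same strand and grey for the 56 that hold none. The 7 leading genes are all green, and 5 genes lie at 0.

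The snoRNAs inside 4 of the most counted members are shown because a snoRNA inside the gene is a feature these members share. Rpl23 and Rpl21 each hold 1 more that is not shown, Gm27326 and Gm23202. All are intronic. Snora21 lies in Rpl23 at chr11:97781639-97781775 on the minus strand, Snord15a and Snord15b in Rps3 at chr7:99482785-99482932 and chr7:99479563-99479707 on the minus strand, and Gm25091 in Rpl21 at chr5:146834834-146834904 on the plus strand. Snora64 lies in Rps2 at chr17:24720772-24720905 on the plus strand (GRCm38/mm10). Capitals mark box C (TGATGA) and box D (CTGA) in the C/D class, which guides methylation of ribosomal RNA, and the terminal ACA box in the H/ACA class, which guides pseudouridylation.
Snora21 in Rpl23: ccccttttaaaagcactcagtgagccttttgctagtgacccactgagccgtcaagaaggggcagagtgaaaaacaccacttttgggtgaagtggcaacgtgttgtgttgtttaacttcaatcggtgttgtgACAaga
Snord15a in Rps3: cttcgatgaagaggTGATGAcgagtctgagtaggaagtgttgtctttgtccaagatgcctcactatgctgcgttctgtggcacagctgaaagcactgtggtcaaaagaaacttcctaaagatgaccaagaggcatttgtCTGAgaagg
Snord15b in Rps3: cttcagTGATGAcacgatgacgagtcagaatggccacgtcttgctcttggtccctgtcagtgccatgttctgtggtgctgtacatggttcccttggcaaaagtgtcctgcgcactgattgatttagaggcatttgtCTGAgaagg
Gm25091 in Rpl21: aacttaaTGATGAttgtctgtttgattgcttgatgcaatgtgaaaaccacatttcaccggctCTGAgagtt
Snora64 in Rps2: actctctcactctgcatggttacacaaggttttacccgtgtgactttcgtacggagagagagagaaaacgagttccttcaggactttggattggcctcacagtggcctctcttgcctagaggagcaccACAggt

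The 3′ ends of many members are repeated elsewhere in the genome, which bears on counting. Of 84 members with a principal transcript, 50 shared over 50% of the 36-base words of their last 300 transcript bases with another annotated gene, 60 shared at least 1 with a pseudogene, and 19 shared none. The leading members fell on both sides. Rps3, Rpl21 and Rpsa shared none. Rpl23 shared 20.4%, with 563 genes, 8 of them pseudogenes. Rps2 shared 84.5% (75 pseudogenes among the genes sharing), Rpl7a 86.0% (105 pseudogenes) and Rpl3 77.7%. These shares cover 1 annotated transcript per gene, of 1908 bases in Rps3, 1856 in Rpl21 and 1938 in Rpsa. Whether other transcripts of these genes end in other bases was not examined. Members with no shared word had a median of 16 counts and members above 50% a median of 15. The sources used here do not say how reads with several matches were counted. The counts of Rps2, Rpl7a and Rpl3, and in part that of Rpl23, are uncertain for this reason. The Spearman correlation with the total count, across genes of the same libraries and given as a description, was 0.05 for the shared percentage (84 genes), 0.15 for the gene span (86 genes) and 0.40 for transcript length (84 genes).

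Pyrimidine runs were frequent near the annotated start sites of members. Within 50 bases of the RefSeq start (GRCm38.p6), 62 of 79 member promoters (78.5%, from 67 matched members) held a run of at least 8 C or T bases that began with C on the strand of the gene, against 9450 of 32851 promoters (28.8%) of all genes. The median longest run was 10 bases in members and 6 in all promoters. The runs of 5 members that could be tested between groups are shown because they span the range from long to short. They are 19 bases in Rpl7a (chr2:26910787-26910816, plus strand), 15 in Rpl4 (chr9:64173405-64173434, plus strand), 9 in Rpl6 (chr5:121204521-121204550, plus strand), 6 in Rpl23 (chr11:97782400-97782429, minus strand) and 5 in Rps3 (chr7:99483669-99483698, minus strand). The runs begin 26 bases after the annotated start in Rpl4, 33 in Rpl6, 18 in Rpl23 and 19 in Rps3 and at position -12, before it, in Rpl7a, so none begins at the annotated start itself. Those of Rpl23 and Rps3 are shorter than the minimum of 8. Each window has 30 bases and capitals mark the longest run.
Rpl7a: ccacaattCCCTCTTCTTTCTTTCTCCagc
Rpl4: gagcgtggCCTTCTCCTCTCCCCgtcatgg
Rpl6: cgctgccttagttCTCTTTCCCgtcttgca
Rpl23: gggcggggCCTCCCgttcatatcccagtgt
Rps3: cgtcattgCTCCCgccctatatacctactt

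No ribosomal protein gene passed the test between tumor-bearing and tumor-free mice. Of the 87 members, 10 passed the filter on low counts (4 of the large and 6 of the small subunit), and 0 had an adjusted p under 0.05 in edgeR's quasi-likelihood test with Benjamini-Hochberg adjustment over all 2495 genes tested, where 0% of genes passed in either direction and every adjusted p was at least 0.990. DESeq2 and limma voom also called 0, with 49 and 72 genes at an unadjusted p under 0.05 where edgeR had 67. At an unadjusted p under 0.05, 2 members, Rpsa and Rpl4, were lower with a tumor and 0 were higher, where 1.68% of all genes tested were lower and 1% higher. The log2 fold change (tumor-bearing over tumor-free) was below 0 for 8 of the 10 tested members and above 0 for Rpl23 and Rps15a, and 45.9% of all genes tested lay below 0. The median was -0.73 for the 10 members and 0.04 for all genes tested. A member can pass the filter through the tumor-free libraries alone, as Rpl4 did, so these 10 do not stand for the family.

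**Figure D2:**
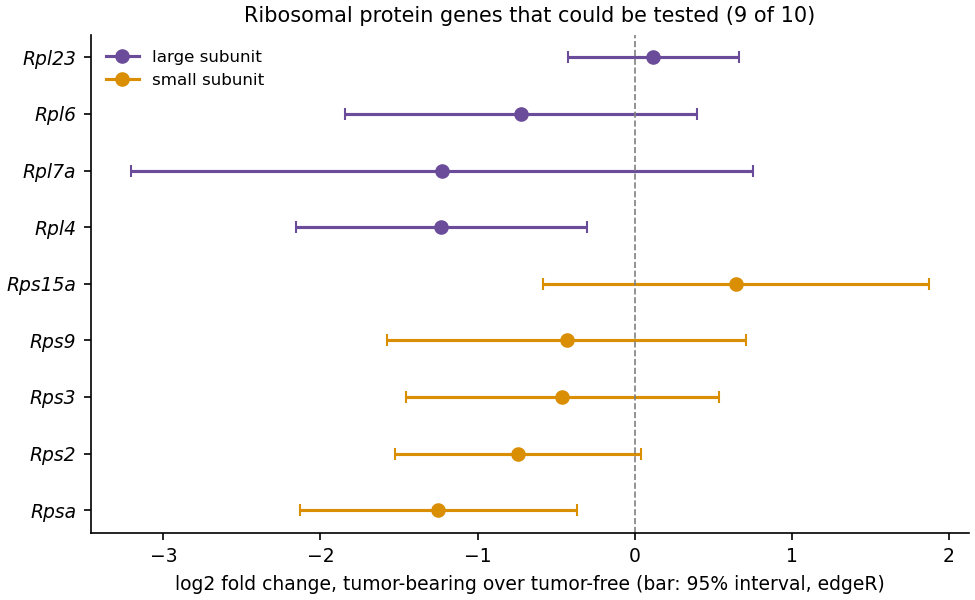
Log2 fold change, tumor-bearing over tumor-free, with its 95% confidence interval from edgeR for 9 of the 10 ribosomal protein genes that passed the filter on low counts (purple: large subunit, orange: small subunit). Of the 9 points 7 lie left of 0, and the intervals of Rpl4 and Rpsa do not reach 0 before adjustment. Rpl4 passed the filter through the tumor-free libraries alone.

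Over the whole family the shift was smaller. Among the 82 members with counts, fitted with no filter, 48 lay below 0 and 34 above (58.5% below, against 46.9% of all 13344 genes with counts), and the median log2 fold change was -0.20 against 0.07. With members absent from 1 group set to their bound or left out where both groups were at or under 3 counts, the median over 70 members was -0.25. Among the 28 members with at least 20 counts in total, a limit that does not look at the groups, 19 lay below 0 and 9 above, with a median of -0.35 against 0.07 for 4445 genes. These medians are descriptions and were not tested. Without tumor-free replicate 1, the tested members' median was -0.20 (12 members) and that of all members with counts was -0.049. Without tumor-bearing replicate 4 and without tumor-free replicate 3 the latter was -0.38 and -0.28, so its size depends on single libraries. Tumor-free replicate 1 also held the highest summed level of the osteoblast markers, 2578 CPM, where the other tumor-free libraries had 1531 and 1698 CPM and the tumor-bearing libraries 1135 to 1756 CPM. Whether osteoblast content has a part in the shift was not tested.

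The small subunit genes summed to less in the tumor-bearing libraries, mostly through Rps3, Rps2 and Rpsa. The summed level of the 34 small subunit genes was 1138, 1282, 1135 and 1378 CPM in tumor-bearing replicates 1 to 4 and 2140.1, 1460.1 and 1531 CPM in tumor-free replicates 1 to 3. Every tumor-bearing library was thus below every tumor-free one on this scale, with means of 1233 ± 118 CPM (SD, n = 4) and 1710.4 ± 374 CPM (SD, n = 3), a log2 ratio of -0.47. Without tumor-free replicate 1 the ratio was -0.28. Most of the difference in means lay in Rps3, Rps2 and Rpsa. These averaged 324, 142 and 96.1 CPM with a tumor and 475, 238 and 240.4 CPM without one. Of the 33 small subunit genes with counts, fitted with no filter, 21 lay below 0 and 12 above, with a median log2 fold change of -0.27. As shares of unscaled library counts the groups overlapped, with 0.143% in tumor-bearing replicate 4 and 0.140% in tumor-free replicate 2. The summed erythroid markers (6 of 6 in the files with counts) moved the same way, at 75.0 to 109.7 CPM in the tumor-bearing and 110.4 to 185 CPM in the tumor-free libraries, and their part in the result was not tested.

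The sum of the 53 large subunit genes did not separate the groups. It was 1701, 1272, 1708 and 3199 CPM in the tumor-bearing and 2218, 1698 and 1749 CPM in the tumor-free libraries, with means of 1970.0 ± 845 CPM (SD, n = 4) and 1888 ± 287 CPM (SD, n = 3). The high value of tumor-bearing replicate 4 came from Rpl21. Without Rpl21, an alternative added after seeing the data, that library fell to 1528 CPM and the means were 1510.3 ± 187 and 1814 ± 333 CPM, still overlapping. The sum of both subunits without Rpl21 was 2771, 2523, 2775 and 2906 CPM with a tumor and 4329, 3014 and 3232 CPM without one. These do not overlap (log2 ratio of the means -0.36, or -0.19 without tumor-free replicate 1), but as unscaled shares tumor-bearing replicate 4 with 0.301% lay above tumor-free replicate 2 with 0.289%.

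**Figure D3:**
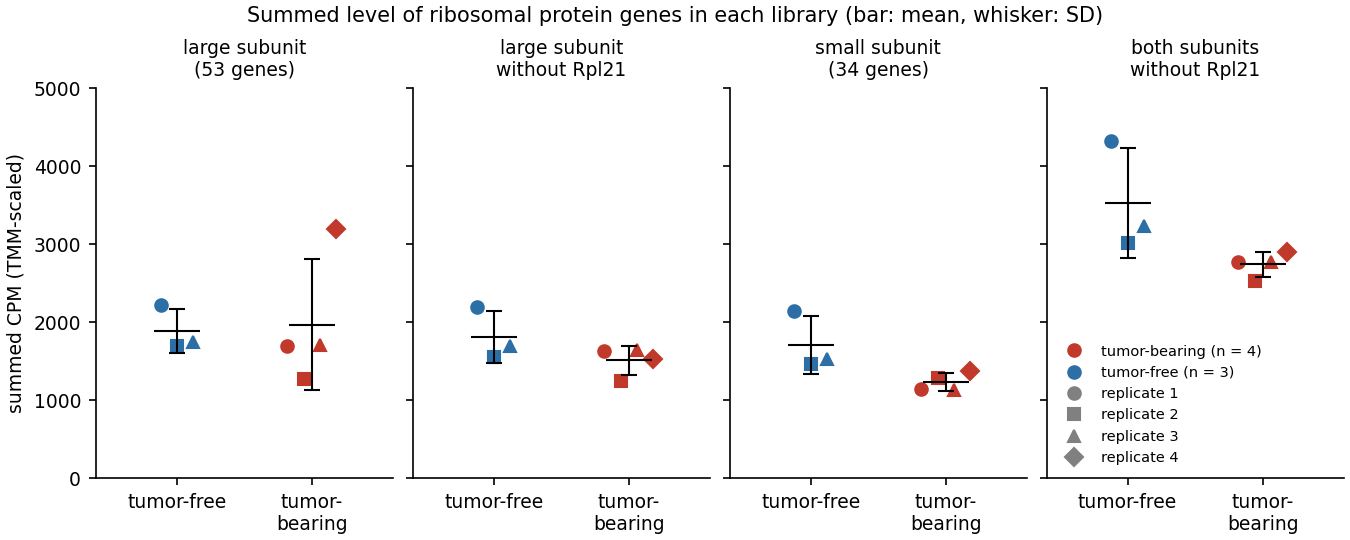
Summed CPM on TMM-scaled library sizes of the large subunit genes, the same without Rpl21, the small subunit genes and both subunits without Rpl21, with 1 point per library, the group mean as a horizontal bar and the SD as a whisker (4 tumor-bearing, 3 tumor-free). Tumor-bearing replicate 4 stands at 3199 CPM in the first panel only, and the groups are separate in the last pair of panels.

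The ratio of large to small subunit counts within a library does not depend on scaling. It was 1.49, 0.992, 1.505 and 2.32 in the tumor-bearing and 1.04, 1.16 and 1.14 in the tumor-free libraries. Tumor-bearing libraries spread more widely, with a mean of 1.58 ± 0.551 (SD, n = 4) against 1.11 ± 0.0678 (SD, n = 3), and the groups overlap. Without Rpl21 the means were 1.24 ± 0.239 and 1.07 ± 0.0439. Without Rpl21, Rpl7a and Rpl3, each of which has over 50% of its counts in 1 library, they were 1.04 ± 0.195 and 0.864 ± 0.189. In each of these versions the groups differed by less than the SD of the tumor-bearing mice, while the tumor-free SD was smaller than the difference with all members and without Rpl21.

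Rpl23 (Entrez gene 65019, chr11:97777526-97782439), a large subunit protein at the face toward the small subunit and a known partner of Mdm2, was the most counted member. Its level was 699.5, 462, 528 and 491 CPM in the tumor-bearing and 447, 501 and 548 CPM in the tumor-free libraries. The groups overlapped, at 545 ± 106 CPM (SD, n = 4) and 499 ± 50.3 CPM (SD, n = 3). Its log2 fold change was 0.12 (SE 0.24, 95% interval -0.43 to 0.66, edgeR adjusted p = 0.990), the narrowest interval among the tested members. Without tumor-bearing replicate 1 the value was -0.028.

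Rpl21 (Entrez gene 19933, chr5:146832890-146837032), another large subunit protein, was carried by a single library. Its counts were 5, 3, 12 and 245 in the tumor-bearing and 3, 17 and 6 in the tumor-free libraries, so 84.2% of its 291 counts lay in tumor-bearing replicate 4. On the CPM scale that library stood at 1671, and the other 6 between 29.2 and 144. The highest count of any gene in a library was between 282 and 303 in all 7, and it was 303 in tumor-bearing replicate 4, so Rpl21 was close to the top of that library. These maxima are nearly equal although the library totals range from 77127 to 169774, and a count may be a read or a molecule. Whether counts this high are capped was not tested. The gene did not pass the filter and was not tested. Rpl3, which lies close to the peptidyl transferase centre, showed a milder form of this, with 82.3, 42.0, 315 and 47.8 CPM in the tumor-bearing and 48.6, 178 and 32.2 CPM in the tumor-free libraries. Of its 103 counts 54.4% lay in tumor-bearing replicate 3.

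Among the other large subunit genes, Rpl7a (Entrez gene 27176, chr2:26910685-26913312) was high in tumor-free replicate 1 alone. Its levels were 96.0, 158, 89.9 and 123 CPM with a tumor and 729.6, 59.4 and 88.6 CPM without one. The log2 fold change of -1.23 (SE 0.84) was -1.87 without tumor-bearing replicate 4 and turned to 0.71 without tumor-free replicate 1, which held 50.3% of the gene's 149 counts. Among genes with at least 20 counts, 4 of 28 members (14.3%; Rpl21, Rpl3, Rpl7a and Rpl41) had 50% or more of their counts in 1 library, against 282 of 4445 genes (6.34%). The median share in the highest library was close, 27.1% and 25.5%. The difference of these shares was not tested.

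Rpl4 (Entrez gene 67891, chr9:64173387-64178562), which lines the exit tunnel, was 1 of the 2 members whose groups did not overlap. It passed the filter through the tumor-free libraries alone, where 3 reached the minimum and 0 tumor-bearing ones did, so it had to differ and its values are given as a description. Its level was 68.6, 31.5, 22.5 and 75.0 CPM in the tumor-bearing libraries, from 5, 3, 4 and 11 counts. In the tumor-free libraries it was 97.3, 93.4 and 153 CPM, from 10, 11 and 19 counts. The means were 49.4 ± 26.3 CPM (SD, n = 4) and 115 ± 33.4 CPM (SD, n = 3), and the log2 fold change was -1.23 (SE 0.40, 95% interval -2.16 to -0.30, unadjusted p = 0.0159 and adjusted p = 0.990 in edgeR). It did not pass the filter without tumor-bearing replicate 3 or 4. Rpl6, at the surface of the large subunit, was between 31.5 and 102 CPM with a tumor and between 64.5 and 136 CPM without one, overlapping, with a log2 fold change of -0.72 (SE 0.48). This was -0.43 without tumor-free replicate 1 and -1.41 without tumor-free replicate 3, and the gene did not pass the filter without tumor-bearing replicate 4.

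In the small subunit, Rpsa (Entrez gene 16785, chr9:120127766-120132369), which is also known as a laminin receptor precursor, was the other member without overlap. It measured 54.9, 116, 84.3 and 129.6 CPM in the tumor-bearing and 311, 136 and 274 CPM in the tumor-free libraries. The means were 96.1 ± 33.4 CPM (SD, n = 4) and 240.4 ± 92.4 CPM (SD, n = 3). The log2 fold change was -1.25 (SE 0.38, 95% interval -2.13 to -0.37, unadjusted p = 0.0117 and adjusted p = 0.990 in edgeR), or -0.83 without tumor-free replicate 1. The separation was narrow: with unscaled totals, tumor-bearing replicate 4 stood at 134 CPM and tumor-free replicate 2 at 130.2 CPM, which overlap. Of all 2495 genes tested, 1.32% had all tumor-bearing libraries below all tumor-free ones on the TMM scale and 2.2% had them all above, and among the 10 members tested 2 were all below and 0 all above. Rpl4 was 1 of these 2, and its separation followed from the way it passed the filter.

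Rps3 (Entrez gene 27050, chr7:99477896-99483709), a ribosomal protein that also acts in DNA repair, was the most counted small subunit gene. Its level was 192, 326, 348 and 429.8 CPM with a tumor and 681, 535 and 209.5 CPM without one, where tumor-free replicate 3 lay among the tumor-bearing libraries. The log2 fold change of -0.46 (SE 0.43) depended on which mice entered. Without tumor-bearing replicate 1 it was -0.29, and without tumor-free replicate 1 it was -0.15. Without tumor-bearing replicate 4 it was -1.09 and without tumor-free replicate 3 it was -1.03, and both of these settings compare only mice of 31 weeks. Rps2, which with Rps3 and Rps9 lines the messenger RNA entry channel, measured 109.7, 210.2, 140.5 and 109 CPM with a tumor and 253, 178 and 282 CPM without one. Only tumor-bearing replicate 2 reached into the tumor-free range, and the log2 fold change was -0.74 (SE 0.34, 95% interval -1.53 to 0.04), or -0.48 without tumor-free replicate 3.

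The remaining tested genes of the small subunit all overlapped between groups. Rps9 measured 73.3 ± 33.9 CPM (SD, n = 4) with a tumor and 95.1 ± 43.1 CPM (SD, n = 3) without one, with a log2 fold change of -0.43 (SE 0.49) that ranged from -0.72 without tumor-bearing replicate 1 to -0.19 without tumor-bearing replicate 3, and lay between -0.29 and -0.25 without tumor-bearing replicate 4, tumor-free replicate 1 or tumor-free replicate 3, and at -0.70 without tumor-free replicate 2. Rps15a was 116 ± 20.4 CPM (SD, n = 4) against 75.1 ± 53.1 CPM (SD, n = 3), with a log2 fold change of 0.64 (SE 0.53), where tumor-free replicate 2 was low at 17.0 CPM, from 2 counts. Leaving out that mouse gave 0.069. Leaving out the 23-week tumor-bearing mouse gave 1.23 and leaving out the 23-week tumor-free mouse 1.29, and both of these settings compare only mice of 31 weeks. The 95% interval of a tested member had a median width of 0.999 on the log2 scale to either side, before any adjustment.

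**Figure D4:**
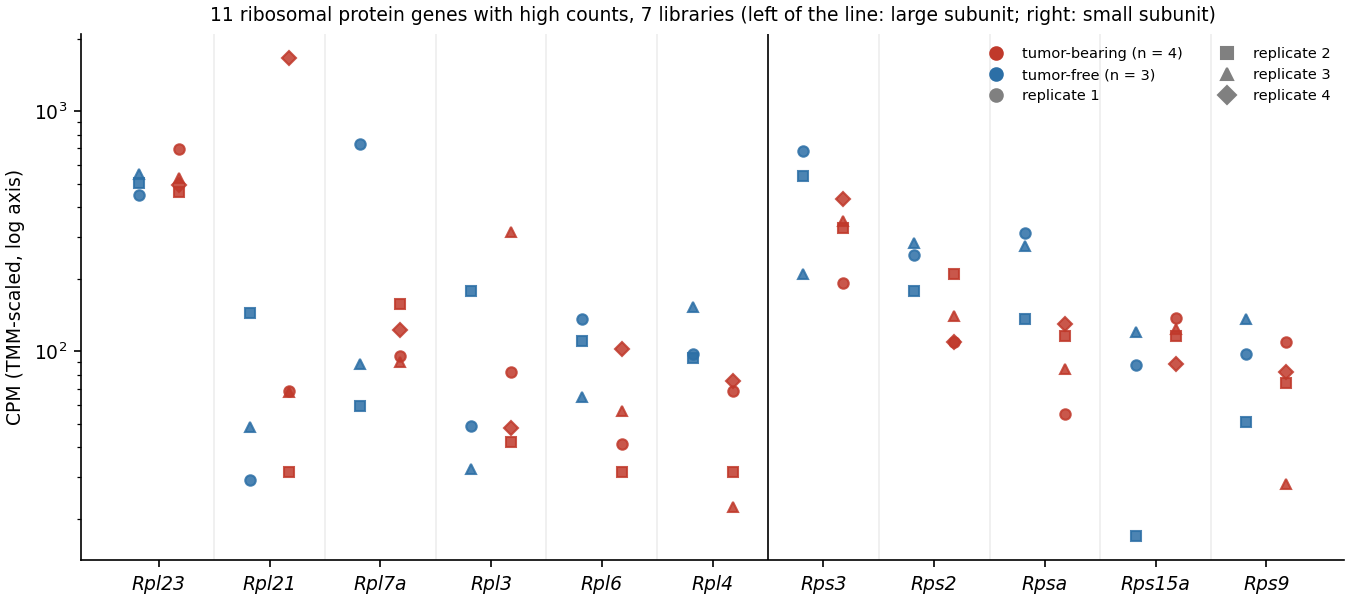
CPM (log axis, TMM-scaled library sizes) in each of 7 libraries of 11 of the ribosomal protein genes with most counts, large subunit left of the line and small subunit right of it, with blue for 3 tumor-free and red for 4 tumor-bearing mice and the marker shape for the replicate number. Single points stand apart for Rpl21 (1671 CPM), Rpl7a (729.6 CPM) and Rpl3 (315 CPM), and every red point lies below every blue one for Rpl4 and Rpsa on this scale.

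Other members with known regulatory roles had too few counts to test. Rpl5 and Rpl11, which with 5S ribosomal RNA bind Mdm2 when ribosome assembly fails, had 25 and 13 counts over the 7 libraries. Rps6, the substrate of S6 kinase, had 29 counts, between 2 and 7 in a library. Rpl13a, known from translational silencing of inflammatory transcripts, had 20 counts. Rps19, mutated in Diamond-Blackfan anaemia, had 7, and Fau, which is made as a fusion to a ubiquitin-like protein, had 9. The ubiquitin fusion Rps27a had 14 counts, of which 6 lay in tumor-bearing replicate 1, 0 in the other 3 tumor-bearing libraries and 2, 4 and 2 in the tumor-free libraries. No direction can be read from such counts. The stalk proteins, which recruit elongation factors, had 16 counts for Rplp0 (2, 1, 2 and 1 with a tumor and 6, 0 and 4 without), 7 for Rplp2 and 3 for Rplp1.

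The paralogs of ribosomal proteins had few counts, as did several of their canonical partners, and Rpl22l1 was not rarer than Rpl22. The canonical Rpl3 held 103 counts and its muscle paralog Rpl3l 0. Rpl10 held 15 counts and the retrogene Rpl10l, known from testis, 3, all of them in tumor-bearing replicate 2. For Rpl22 and Rpl22l1 the totals were 3 and 4, for Rpl36a and Rpl36al 6 and 1, for Rpl39 and Rpl39l 2 and 0, and for Rps27 and Rps27l 7 and 0. The X-linked Rps4x held 17 counts. The 6 paralogs together had 8 counts and the 3 retrogene copies 5, of the 2854 in the family. Rack1, a scaffold of the small subunit outside the symbol rule, had 21 counts (4, 2, 2 and 1 with a tumor and 10, 2 and 0 without).

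Genes that build and regulate ribosomes showed no call either. Of 82 genes for ribosome assembly and ribosomal RNA synthesis, 64 had counts and 15 were tested, 8 with a log2 fold change below and 7 above 0, and 0 called. Their summed level was 6453 ± 585 CPM (SD, n = 4) with a tumor and 6326 ± 212 CPM (SD, n = 3) without one, and among them Utp6 stood at 0.60 (SE 0.25) on the log2 scale and Utp18 at -0.57 (SE 0.27), both parts of the complex that processes small subunit ribosomal RNA, and Polr1b, a subunit of RNA polymerase I, at -0.42 (SE 0.31). Of 40 translation factors 35 had counts and 3 were tested, all above 0 and 0 called: Eif4g2 at 0.46 (SE 0.42), Eif5b at 0.52 (SE 0.56) and Eef1b2 at 0.08 (SE 0.35). The 3 do not stand for the list, since the median over the 35 with counts, fitted with no filter, was -0.42. The list summed to 883 ± 300 CPM (SD, n = 4) with a tumor and 987 ± 119 CPM (SD, n = 3) without one. Of 30 genes of mTORC1, S6 kinase and Myc signalling 17 had counts and 5 were tested, 2 below and 3 above 0, with 0 called. They included Eef2k, the kinase that slows elongation, at 0.77 (SE 0.32), Deptor, an mTOR inhibitor, at -0.84 (SE 0.58) and Rictor, a subunit of the related mTORC2, at 0.31 (SE 0.47), while Myc and Mtor had 0 counts in every library. The median was 0.28 over the 5 tested and -0.13 over the 17 with counts. These 30 genes summed to 2085 ± 223 CPM (SD, n = 4) with a tumor and 2204 ± 383 CPM (SD, n = 3) without one. Of the 6 genes of the Mdm2 and p53 response in the files none was tested, and the list held 82 counts.

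Genes of the mitochondrial ribosome, a separate machine that translates the mitochondrial genome, gave no call. Of 78 Mrpl and Mrps genes 44 had counts and 12 were tested, 4 below and 8 above 0 with a median of 0.12 and 0 called. They summed to 4119 ± 345 CPM (SD, n = 4) with a tumor and 3828 ± 401 CPM (SD, n = 3) without one. Mrpl9 had a log2 fold change of 0.42 (SE 0.22), with all tumor-bearing libraries above the tumor-free ones on the TMM scale, Mrpl51 of 0.49 (SE 0.25) and Mrpl10 of -0.20 (SE 0.25). With 3307 counts the mitochondrial genes outnumbered the 2854 of the cytosolic family in these libraries. Ribosomal protein pseudogenes listed in the files were few, with 6 rows, 4 with counts and 58 counts in all.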

How the data were processed

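Gene expression was measured in sorted osteoblasts with 1 library per mouse, 4 tumor-bearing and 3 tumor-free, grouped by the sample labels. The authors deposited raw counts, 1 whole number for each Entrez gene ID and mouse, without normalization. Per the labels' protocols, transcript 3′ ends were sequenced by a CEL-Seq variant with molecular identifiers. SAMtools, TopHat2 2.0.10 and the build mm10 are named in the submitters' processing notes. The counting program, its annotation, strand setting and handling of identifiers and of reads with several matches remain not given in the sources used here.

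A RefSeq table (GRCm38.p6) gave symbols to 23666 of 23725 gene IDs, and the other 59 kept their IDs. Rps27rt meets the rule but has no row in the files, and Rps4l is annotated as a pseudogene. Retrogene copies were marked after the files were seen. Libraries were scaled by TMM (factors 0.945 to 1.05). Genes were filtered with filterByExpr (minimum count 10, minimum total 15) and fitted with age as a factor in edgeR 4.0.16 (glmQLFit, robust, glmQLFTest, R 4.3.3, prior count 0.125), with Benjamini-Hochberg adjustment at 0.05 over 2495 genes. The test was tested on simulated data. DESeq2 1.42.0 and limma 3.58.1 (voom) were alternatives, with other scalings, filters and ages, a replicate block and each library left out. Libraries of a group differed beyond counting noise (chi-square per degree of freedom 4.53 to 6.51). Since a count may be a read or a molecule, this cannot exclude that 1 library repeats another. Where no filter was used, genes with at least 1 count entered.

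The members and all gene lists were chosen with earlier results of these data known, so no p-value is given for a list or a sum. Named genes are the tested members, the 5 with the highest mean CPM of each subunit, members with a regulatory or reference role, paralog pairs with counts, members with 0 counts, and up to 3 tested genes with the smallest p of each other list. Some genes and alleles that the labels or this rule name are not reported here, though their counts enter the totals and medians.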

Additional observations from a re-analysis of the deposited data

Results flagged for a closer look

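In 5 of 38 values examined over the 4 tumor-bearing libraries, 1 library lay far from the other 3. Chance alone flags about 1 in 20 where values are normally distributed, a rate that need not hold for CPM from few counts. Flagged were Rpl21 at 1671 CPM and the summed level of all 87 members at 4577 CPM in tumor-bearing replicate 4, and Rpl3 at 315 CPM in replicate 3. Rps29 at 63.1 CPM in replicate 2 and Rps27a at 82.3 CPM in replicate 1 were flagged too, each from 6 counts. The sum and Rpl21 are not independent, since without Rpl21 that library summed to 2906 CPM, where the other tumor-bearing libraries had 2523 to 2775 CPM. The tumor-free group of 3 was not examined in this way.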

How the results depend on the processing

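No ribosomal protein gene was called under any alternative run. The median log2 fold change of the tested members moved from -0.73 to -0.20 with no filter and to -0.19 with the stricter filter (30 counts in 3 libraries, 2 members left), both of which change the genes tested. Leaving out each library gave -0.83 to -0.20 for that median and -0.38 to -0.049 for that of all members with counts. Leaving out each library gave -0.028 (without tumor-bearing replicate 1, a reversal) to 0.23 for Rpl23 and -1.87 to 0.71 (without tumor-free replicate 1, a reversal) for Rpl7a. The subunit ratio of the tumor-free group was 0.864 without Rpl21, Rpl7a and Rpl3. The other causes were not tested. Same-numbered mice did not deviate together (correlations -0.21, -0.12 and -0.15, where pairs of different number ranged from -0.27 to 0.24). These values gave no sign of pairing by number, but so few pairs cannot exclude it. With the replicate number as a block, which drops tumor-bearing replicate 4 and the age term, 8 members were tested and 0 called, 37 of 2281 genes had an unadjusted p under 0.05, the tested members' median was -0.66, and that of all members with counts was -0.28. Without either 23-week mouse, the age term takes up the other, which then no longer enters the comparison. With these depths 77 of 87 members had too few counts to be tested.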
